A study of Mus musculus with 12 samples.

Results

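Aminoacyl-tRNA synthetases join each amino acid to its transfer RNA, and every step of protein synthesis draws on their products. Cells run one set of these enzymes in the cytosol and another in the mitochondrion, both encoded by nuclear genes. Mitochondrial members charge the transfer RNAs that translate the mitochondrial genome's own messages, most of them for subunits of the respiratory chain, while cytosolic members serve all other protein synthesis. PGC-1beta, the product of Ppargc1b, is a coactivator that works with nuclear receptors of the ERR family and with NRF1 on genes of mitochondrial respiration.

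The genes described here were chosen by name alone, as probe sets with a single gene symbol of the synthetase families. They came to 34 genes of 18193 measured, with 68 probe sets of 45037: 18 cytosolic or shared genes with 36 probe sets and 16 mitochondrial genes with 32. Gars and Kars, for glycine and lysine, each encode the enzyme of both compartments from 1 gene and are counted with the cytosolic class. Farsa and Farsb are the 2 subunits of the cytosolic phenylalanine enzyme. The genes cover 19 amino acids, and for 14 of these both classes are present. Eprs was not among the genes chosen. Of the member probe sets, 13 carry a suffix, s or x, that marks possible cross-hybridisation with other transcripts.

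Expression was measured on Affymetrix Murine 430 2.0 arrays in liver and quadriceps muscle from C57BL/6 mice that were either PGC1beta mutant or control, with 3 arrays a group in 4 groups. They are mutant and control liver and mutant and control muscle. The series title calls the mutation hypomorphic, meaning that some function remains, and the labels give neither the allele nor the age, sex or diet of the mice. The labels do not say whether each sample came from a separate mouse, so p-values measure only the spread between these samples. They also do not say whether liver and muscle came from the same mice, and all arrays were treated as independent. Both tissues were bulk samples, in which fewer cells of a type and less RNA per cell cannot be told apart.

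The tissue labels held against their markers: 10 of 10 hepatocyte markers were higher and 10 of 10 skeletal muscle markers lower in control liver than in control muscle. The targeted gene gave no check of genotype, since no source at hand says which stretch of Ppargc1b the mutation changes. Ppargc1b read 402, 492 and 202 in mutant livers, against 544, 282 and 479 in control livers (log2 difference -0.28, adjusted p = 0.692 in limma). In muscle it read 423, 280 and 271 in mutants, against 302, 284 and 332 in controls (0.06, adjusted p = 0.998). The mean log2 ratio of 3′ to 5′ signal over control transcripts, a measure of RNA integrity, was 1.90, 0.90 and 1.87 in the mutant livers, against 0.74, 0.97 and 0.50 in the control livers, so mutant livers 1 and 3 stood apart. In muscle it lay between 0.33 and 0.56 in mutants and between 0.40 and 0.52 in controls. Both high ratios of liver belonged to mutants, so RNA quality and genotype cannot be fully told apart there. With the ratio as a covariate less of the genotype contrast remains to be estimated. A call lost in that fit cannot show which of the 2 it came from. All values are array intensities, and log2 differences are of intensity plus an offset of 16, which understates the differences of dim genes. Intensities of different probe sets are not comparable with each other.

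Which synthetases differed between the organs was read from the control arrays, liver against muscle. Cytosolic synthetases were mostly lower in liver: 13 of 18 were lower, 1 was higher and 4 did not pass the test (limma, Benjamini-Hochberg adjusted p under 0.05 over all 13477 genes tested). Mitochondrial synthetases had no common direction, with 4 higher, 2 lower and 9 not past the test among the 15 that were tested. Across all genes 57.1% passed this test, 27.3% as higher and 29.8% as lower in liver, so the 20 of 33 synthetases called are near the background share in number. In 6 synthetases every control liver lay above every control muscle, and in 16 below. Of all 13477 genes 4107 and 4458 did so, thus lack of overlap between organs was common to most genes. The median log2 difference was -0.66 over the cytosolic genes and 0.07 over the mitochondrial genes, beside -0.01 over all genes tested.

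These counts depend on how the 2 organs are put on one scale. The values above were quantile normalised over all 12 arrays. As deposited, liver values were shifted up, with a median of 0.50 over all genes and 74.1% of calls higher in liver, against 47.8% of calls after quantile normalization and 53.7% after median centring of each array. Then 9 cytosolic genes passed, 3 higher and 6 lower in liver, and 9 mitochondrial genes passed, all of them higher. Relative to the median of all genes, the cytosolic median was -0.65 after quantile normalization and -0.56 with either alternative, and the mitochondrial median 0.08 and 0.10. The 2 alternatives match here by construction, since centring shifts each array by 1 constant, and they count as 1 check.

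**Figure D1:**
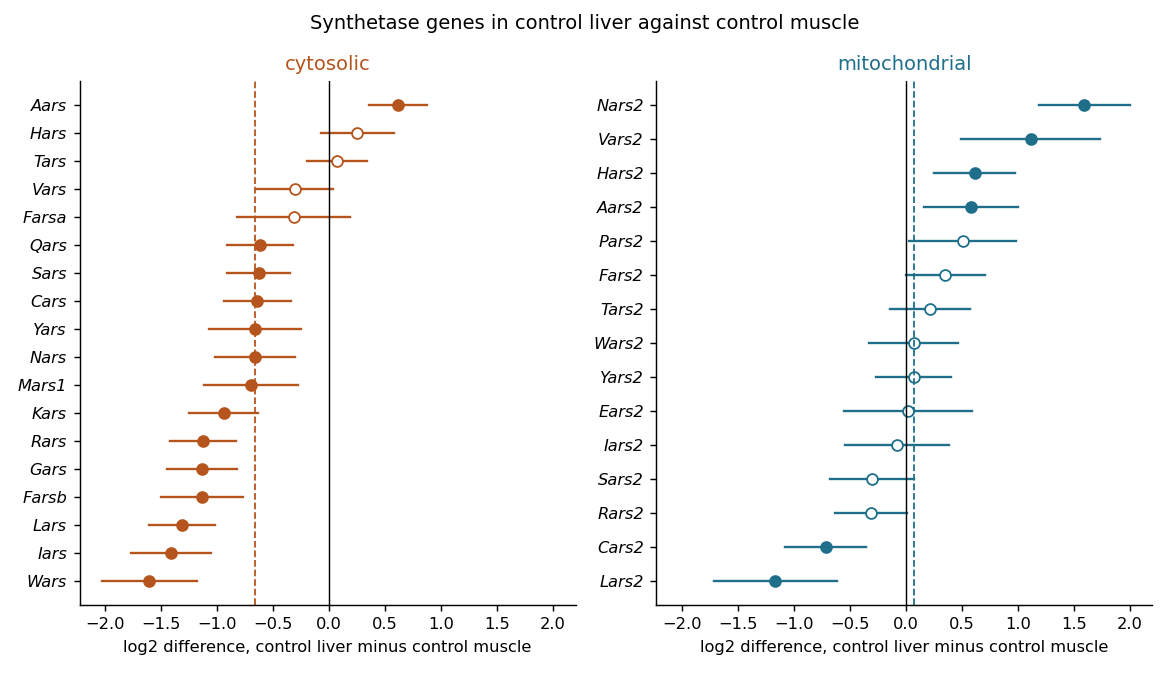
Log2 difference in intensity, control liver minus control muscle, for 18 cytosolic (left) and 15 mitochondrial (right) synthetase genes. Points are limma estimates with 95% confidence intervals, filled where the adjusted p was under 0.05, and the dashed line is the class median (-0.66 and 0.07). Most cytosolic genes lie left of 0, and mitochondrial genes lie on both sides.

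Among the cytosolic enzymes Wars, the tryptophan enzyme and an interferon-inducible gene, differed most. Wars read 94.3, 86.5 and 110 in control livers, against 277, 349 and 360 in control muscles. The groups were far apart, and the level was 3.05-fold lower in liver (log2 difference -1.61 ± 0.20 SE, adjusted p = 3.32e-06).

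Iars, Lars and Rars belong to the multi-synthetase complex, a cytosolic particle that holds several of these enzymes together, and were lower in liver. Iars, for isoleucine, read 172, 255 and 308 in control livers, against 650, 648 and 689 in control muscles. Lars, for leucine, which is also known as a leucine sensor for mTORC1, read 150, 124 and 145 in control livers, against 404, 372 and 340 in control muscles. Rars, for arginine, read 202, 200 and 236 in control livers, against 466, 472 and 509 in control muscles. None of these 3 genes overlapped between organs, with log2 differences of -1.41, -1.32 and -1.13 and adjusted p-values of 2.13e-06, 5.54e-07 and 3.28e-06 in limma. Mars1 and Qars, of the same complex, were lower at -0.70 (adjusted p = 0.00614) and -0.62 (adjusted p = 0.00113). Mars1 did not pass under median centring (-0.49, adjusted p = 0.0540), nor Qars with the mean of its probe sets (-0.34, adjusted p = 0.0511). Eprs, the fused glutamate and proline enzyme of the complex, is outside the chosen names and was lower at -1.14 (adjusted p = 2.15e-05).

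Both genes that serve the 2 compartments at once went with the cytosolic class. Gars read 279, 299 and 332 in control livers, against 660, 679 and 713 in control muscles. Kars, also a complex member, read 191, 220 and 221 in control livers, against 406, 415 and 435 in control muscles. No array overlapped, with log2 differences of -1.14 and -0.94 (adjusted p = 5.86e-06 and 3.28e-05). The arrays do not separate transcripts that keep the mitochondrial leader from those that lose it.

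The 2 subunits of the phenylalanine enzyme did not give the same call in the control arrays. Farsb, the beta subunit, read 212, 243 and 216 in control livers, against 449, 550 and 539 in control muscles (log2 difference -1.14, adjusted p = 3.25e-05). Farsa, the catalytic alpha subunit, read 88.6, 68.7 and 71.1 in control livers, against 80.2, 110 and 108 in control muscles (-0.32 ± 0.24 SE, adjusted p = 0.268). Farsa overlapped between organs where Farsb did not, and the difference between the subunits was not tested. In the mutant arrays both were called lower in liver, at -0.67 for Farsa and -1.18 for Farsb (adjusted p = 0.0218 and 2.2e-05 in limma). The Farsb value comes from a probe set marked for possible cross-hybridisation.

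Nars, Yars, Cars and Sars, for asparagine, tyrosine, cysteine and serine, were lower in liver, with log2 differences of -0.66 to -0.63 (adjusted p between 6.51e-04 and 0.00801). Nars read 492, 703 and 741 in control livers, against 1026, 968 and 1050 in control muscles, and Sars 397, 376 and 430 in control livers, against 602, 685 and 600 in control muscles. Cars read 170, 140 and 156 in control livers, against 257, 226 and 272 in control muscles. No array of these 3 genes overlapped between organs. Nars did not pass under median centring (-0.34, adjusted p = 0.160). Yars lost the call without control liver 2 (-0.45, adjusted p = 0.0515). Yars read 126, 91.9 and 182 in control livers, against 221, 236 and 185 in control muscles, with 1 liver close to 1 muscle. Vars, Tars and Hars, for valine, threonine and histidine, did not pass, at -0.30, 0.07 and 0.25 (adjusted p = 0.119, 0.666 and 0.180).

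Aars, the alanine enzyme, was the 1 cytosolic gene higher in liver. It read 1263, 1428 and 1135 in control livers, against 850, 797 and 829 in control muscles. The groups were separate, at 1.53-fold (log2 difference 0.61 ± 0.12 SE, adjusted p = 4.01e-04). Its other probe set gave the same difference, 0.61 (adjusted p = 0.00126). In the mutant arrays the same contrast was 0.16 (adjusted p = 0.264), with 738, 940 and 964 in mutant livers, against 768, 775 and 796 in mutant muscles.

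On the mitochondrial side Nars2, for asparagine, had the largest positive difference. Nars2 read 126, 158 and 139 in control livers, against 28.1, 45.2 and 35.3 in control muscles. No array overlapped, and the level was 3.02-fold higher in liver (log2 difference 1.60 ± 0.19 SE, adjusted p = 2.27e-06). Vars2, for valine, read 44.2, 74.2 and 52.8 in control livers, against 6.32, 31.7 and 18.4 in control muscles (1.12, adjusted p = 0.00381). Vars2 passed the filter on dim genes, an intensity of 18.4 over all arrays, through its liver values. Hars2, for histidine, read 137, 145 and 109 in control livers, against 82.7, 85.7 and 69.7 in control muscles. Aars2, for alanine, read 88.0, 75.8 and 118 in control livers, against 63.4, 67.4 and 41.9 in control muscles. Neither overlapped between organs, and Hars2 and Aars2 were higher in liver at 0.61 (adjusted p = 0.00587) and 0.58 (adjusted p = 0.0203). Aars2 lost the call without control liver 3 (0.42, adjusted p = 0.104) and without control muscle 3 (0.42, adjusted p = 0.107).

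Lars2, the mitochondrial leucine enzyme, was lower in liver. It read 105, 132 and 96.3 in control livers, against 249, 302 and 255 in control muscles, which do not overlap (log2 difference -1.17 ± 0.26 SE, adjusted p = 0.00103). Cars2, for cysteine, was lower by its brightest probe set at -0.72 (adjusted p = 0.00186), with 70.3, 86.7 and 70.3 in control livers, against 133, 155 and 118 in control muscles. Its 2 other probe sets gave -0.02 and 0.17, and the mean of all 3 gave -0.19 (adjusted p = 0.350), so the call rests on 1 probe set.

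The remaining mitochondrial genes did not pass. Pars2, for proline, and Fars2, for phenylalanine, had differences of 0.51 (adjusted p = 0.0666) and 0.35 (adjusted p = 0.0849). Pars2 read 74.3, 60.9 and 76.6 in control livers, against 38.4, 56.3 and 41.1 in control muscles, which do not overlap. Rars2 and Sars2 had -0.31 and -0.30, and Ears2, Iars2, Tars2, Wars2 and Yars2 lay between -0.08 and 0.22. Mars2, the mitochondrial methionine enzyme, was below the filter on dim genes in every comparison and was not tested, with 1.86, 0.77 and 2.72 in control livers, against 18.9, 23.9 and 13.0 in control muscles.

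Setting the 2 genes for 1 amino acid side by side gave 14 pairs for 13 amino acids, as Fars2 pairs with both Farsa and Farsb. The mitochondrial gene's liver-minus-muscle difference was above the cytosolic gene's in 12 of 14 pairs, with a median gap of 0.70. In Nars and Nars2 the 2 genes went opposite ways, -0.66 and 1.60. Wars and Wars2 gave -1.61 and 0.07, and Iars and Iars2 gave -1.41 and -0.08. Lars and Lars2, for leucine, were both called lower in liver, at -1.32 and -1.17, as were Cars and Cars2. In alanine and cysteine the mitochondrial gene was not above its partner, at 0.58 and -0.72 for Aars2 and Cars2, against 0.61 and -0.64 for Aars and Cars.

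**Figure D2:**
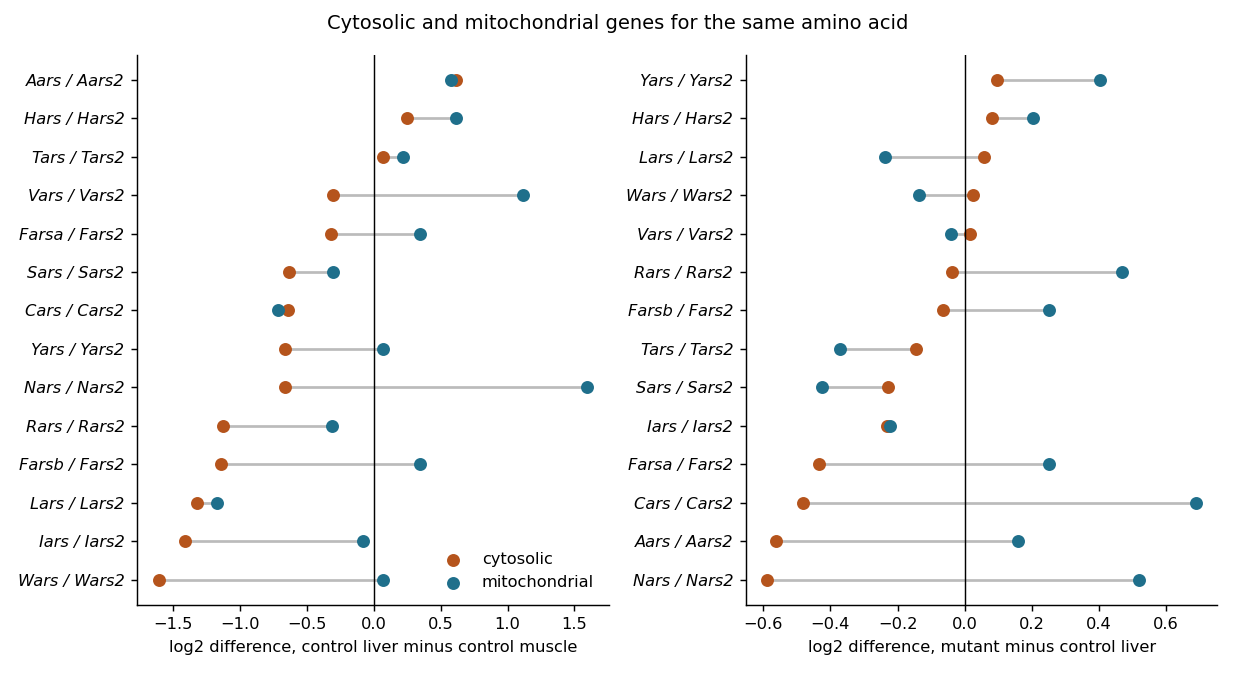
Log2 differences of the cytosolic and the mitochondrial synthetase gene for the same amino acid, joined by a line; left, control liver minus control muscle, and right, mutant minus control liver. The mitochondrial point lies to the right of the cytosolic point in 12 of 14 pairs on the left and in 9 of 14 on the right.

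The mutant arrays of the 2 organs gave 13 cytosolic genes lower and 0 higher in liver, and 6 mitochondrial genes higher and 2 lower, where 58.9% of all 13477 genes passed, 4042 higher and 3900 lower. Mutant liver against mutant muscle gave a cytosolic median of -0.88 and a mitochondrial median of 0.06, beside 0.05 over all genes. Nars2 stood at 2.05 (adjusted p = 1.17e-07), and Fars2 and Yars2, which did not pass in controls, at 0.78 (adjusted p = 7.72e-04) and 0.70 (adjusted p = 0.00112). Cars2 was at 0.06 (adjusted p = 0.766). Whether the organ contrast itself differs by genotype is the interaction tested further on.

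Promoter sequences are shown for the cytosolic genes that hold the core of the amino acid response element, the site bound by ATF4 with C/EBP partners when amino acids run short, and for Nars2 as the mitochondrial gene with the largest organ difference. RefSeq promoters on build GRCm38.p6 were used, from 250 bases before each gene's start to 50 bases after it. They covered 25 of the 34 genes, 11 cytosolic and 14 mitochondrial. The letters TGATGNAA were searched on both strands. They were found in 5 of these 11 cytosolic genes (45.5%), in 0 of the 14 mitochondrial genes and in 3.97% of all 32851 promoters of this length. A match is a description of letters and not a measured site. The promoters are Aars at chr8:111033592-111033891 on the plus strand, Gars at chr6:55037751-55038050 on the plus strand, Iars at chr13:49681880-49682179 on the plus strand, Tars at chr15:11399609-11399908 on the minus strand, Yars at chr4:129189653-129189952 on the plus strand and Nars2 at chr7:96951277-96951576 on the plus strand. Capitals mark TGATGNAA or its reverse complement, and in Tars also 2 matches to the NRF1 palindrome described next.
Aars: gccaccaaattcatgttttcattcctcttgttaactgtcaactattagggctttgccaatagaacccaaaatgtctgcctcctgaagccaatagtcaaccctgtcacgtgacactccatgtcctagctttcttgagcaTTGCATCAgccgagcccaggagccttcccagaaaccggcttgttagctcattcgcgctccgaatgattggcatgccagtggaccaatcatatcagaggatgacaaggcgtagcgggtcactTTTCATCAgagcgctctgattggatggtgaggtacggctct
Gars: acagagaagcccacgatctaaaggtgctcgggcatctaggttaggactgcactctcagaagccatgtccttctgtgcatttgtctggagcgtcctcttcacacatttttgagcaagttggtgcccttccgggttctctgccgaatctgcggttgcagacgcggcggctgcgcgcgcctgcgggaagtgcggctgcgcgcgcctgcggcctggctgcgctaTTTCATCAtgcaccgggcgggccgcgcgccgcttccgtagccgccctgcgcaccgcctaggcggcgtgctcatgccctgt
Iars: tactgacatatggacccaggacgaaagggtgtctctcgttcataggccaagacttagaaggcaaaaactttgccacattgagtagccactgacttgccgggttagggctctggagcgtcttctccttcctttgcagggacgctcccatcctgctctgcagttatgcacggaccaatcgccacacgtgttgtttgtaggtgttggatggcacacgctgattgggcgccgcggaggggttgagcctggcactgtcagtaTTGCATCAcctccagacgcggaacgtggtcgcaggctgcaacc
Tars: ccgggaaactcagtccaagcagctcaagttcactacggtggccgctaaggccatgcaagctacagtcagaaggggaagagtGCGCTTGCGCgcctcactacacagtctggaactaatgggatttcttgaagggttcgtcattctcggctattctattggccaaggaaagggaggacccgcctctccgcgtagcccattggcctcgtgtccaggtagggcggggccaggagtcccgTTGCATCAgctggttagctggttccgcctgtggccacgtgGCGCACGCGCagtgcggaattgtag
Yars: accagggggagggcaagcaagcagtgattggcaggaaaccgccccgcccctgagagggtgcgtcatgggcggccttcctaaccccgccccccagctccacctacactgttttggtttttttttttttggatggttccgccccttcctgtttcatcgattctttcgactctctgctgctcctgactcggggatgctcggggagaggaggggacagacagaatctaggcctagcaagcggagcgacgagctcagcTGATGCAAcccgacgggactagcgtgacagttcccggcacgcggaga
Nars2: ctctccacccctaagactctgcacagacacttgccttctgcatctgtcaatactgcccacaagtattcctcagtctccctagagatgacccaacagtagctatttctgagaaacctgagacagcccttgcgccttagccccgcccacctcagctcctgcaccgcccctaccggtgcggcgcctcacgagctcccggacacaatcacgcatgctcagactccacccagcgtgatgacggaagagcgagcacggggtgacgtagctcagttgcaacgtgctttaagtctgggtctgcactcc

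In Aars the letters begin 112 bases before the start and again at base 10 of the gene. They begin 30 bases before the start in Gars and 15 before it in Tars, and at bases 8 and 4 of the gene in Iars and Yars. These 5 genes did not share a direction between organs: Gars, Iars and Yars were lower in liver, Aars was higher and Tars did not pass. The palindrome bound by NRF1 was searched the same way. It was found in 3 of 11 cytosolic genes (Farsb, Kars and Tars), in 2 of 14 mitochondrial genes (Iars2 and Mars2) and in 4.60% of all promoters. AAGGTCA, the core site bound by ERR-family receptors, was found in 0 of the 25 and in 4.72% of all promoters. Hars, Hars2, Lars and Nars, which share a chromosome with Ppargc1b, were not among the 25 genes searched. Whether their promoters hold any of these letters was not tested.

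The study's own question was what the mutation does in each organ. In liver none of the 33 synthetases tested passed, where 3.35% of all 13327 genes tested did (limma, adjusted p under 0.05). That share, 447 genes, is not firm. It was 2 genes with the ratio of 3′ to 5′ signal as a covariate and 0 without the intensity trend in limma's variance model. It was 0 without mutant liver 1 or without control liver 2, and 26 to 738 with any other single array left out. At an unadjusted p under 0.05 stood 9 of 33, beside 19.6% of all genes, and 9 of 33 had no overlap between mutant and control arrays, beside 24.0% of all genes, both near the background. Class medians of the log2 difference were -0.10 for cytosolic and 0.05 for mitochondrial genes, beside 0.01 for all genes, and 12 of 18 cytosolic and 7 of 15 mitochondrial genes had a lower mean in mutants.

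Of the 33 members 4 had an unadjusted p under 0.05 and a higher mean in mutant liver, near the 11.0% of all genes that did. These 4 were all mitochondrial. Cars2 read 172, 125 and 184 in mutant livers, against 86.2, 106 and 86.1 in control livers. The groups did not overlap, though mutant liver 2 lay nearest the controls, and the log2 difference was 0.69 ± 0.19 SE with an adjusted p of 0.0762. Its other probe sets gave 0.51 and 0.12. Without mutant liver 2 it passed at 0.84 (adjusted p = 0.0373), and in 1 fit of all 12 arrays at 0.69 (adjusted p = 0.0244).

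Nars2 read 291, 198 and 278 in mutant livers, against 154, 193 and 169 in control livers (log2 difference 0.52, adjusted p = 0.157). Rars2, for arginine, read 222, 177 and 253 in mutant livers, against 153, 162 and 138 in control livers (0.47, adjusted p = 0.176). Yars2, for tyrosine, read 165, 180 and 187 in mutant livers, against 122, 135 and 133 in control livers (0.40, adjusted p = 0.185). In Nars2 and Rars2, as in Cars2, mutant livers 1 and 3, those with the high 3′ to 5′ ratio, were the high ones and mutant liver 2 lay just above the controls. Yars2 did not share this order, with mutant liver 1 lowest of the 3.

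With the ratio of 3′ to 5′ signal as a covariate the differences were 0.30 for Cars2, 0.13 for Nars2, 0.14 for Rars2 and 0.43 for Yars2 (adjusted p = 0.848, 0.949, 0.943 and 0.727 in limma). With mutant liver 2 as the lone mutant array, assumed to vary like the controls, they were 0.39, 0.19, 0.20 and 0.42. The covariate fit cannot separate RNA quality from genotype, since both high ratios of liver were in mutants.

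In the other direction 5 of the 33 members had an unadjusted p under 0.05 and a lower mean in mutant liver, beside 8.64% of all genes. Of these 5 genes 3 were cytosolic. Aars had the smallest p of all members, with 965, 1243 and 1276 in mutant livers, against 1701, 1937 and 1517 in control livers. Every mutant array lay below every control array, at 1.48-fold lower (log2 difference -0.56 ± 0.15 SE, adjusted p = 0.0665). Its other probe set gave -0.66. Cars read 116, 132 and 147 in mutant livers, against 208, 171 and 191 in control livers (-0.48, adjusted p = 0.143). In 1 fit of all 12 arrays both passed, Aars at an adjusted p of 0.0135 and Cars at 0.0498.

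Nars, the cytosolic asparagine enzyme, read 403, 637 and 627 in mutant livers, against 635, 916 and 969 in control livers. Mutant liver 2 and control liver 1 touched, and the difference was -0.59 ± 0.22 SE (adjusted p = 0.166), with -0.64 from the other probe set. With the ratio of 3′ to 5′ signal as a covariate Aars, Cars and Nars stood at -0.53, -0.43 and -0.32 (adjusted p = 0.645, 0.748 and 0.889). The 2 mitochondrial genes with lower means were Sars2, for serine, and Tars2, for threonine. Sars2 read 72.1, 89.3 and 75.5 in mutant livers, against 106, 131 and 97.8 in control livers (-0.42, adjusted p = 0.233). Tars2 read 136, 150 and 179 in mutant livers, against 194, 221 and 198 in control livers (-0.37, adjusted p = 0.251), while its other probe set gave 0.09.

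**Figure D3:**
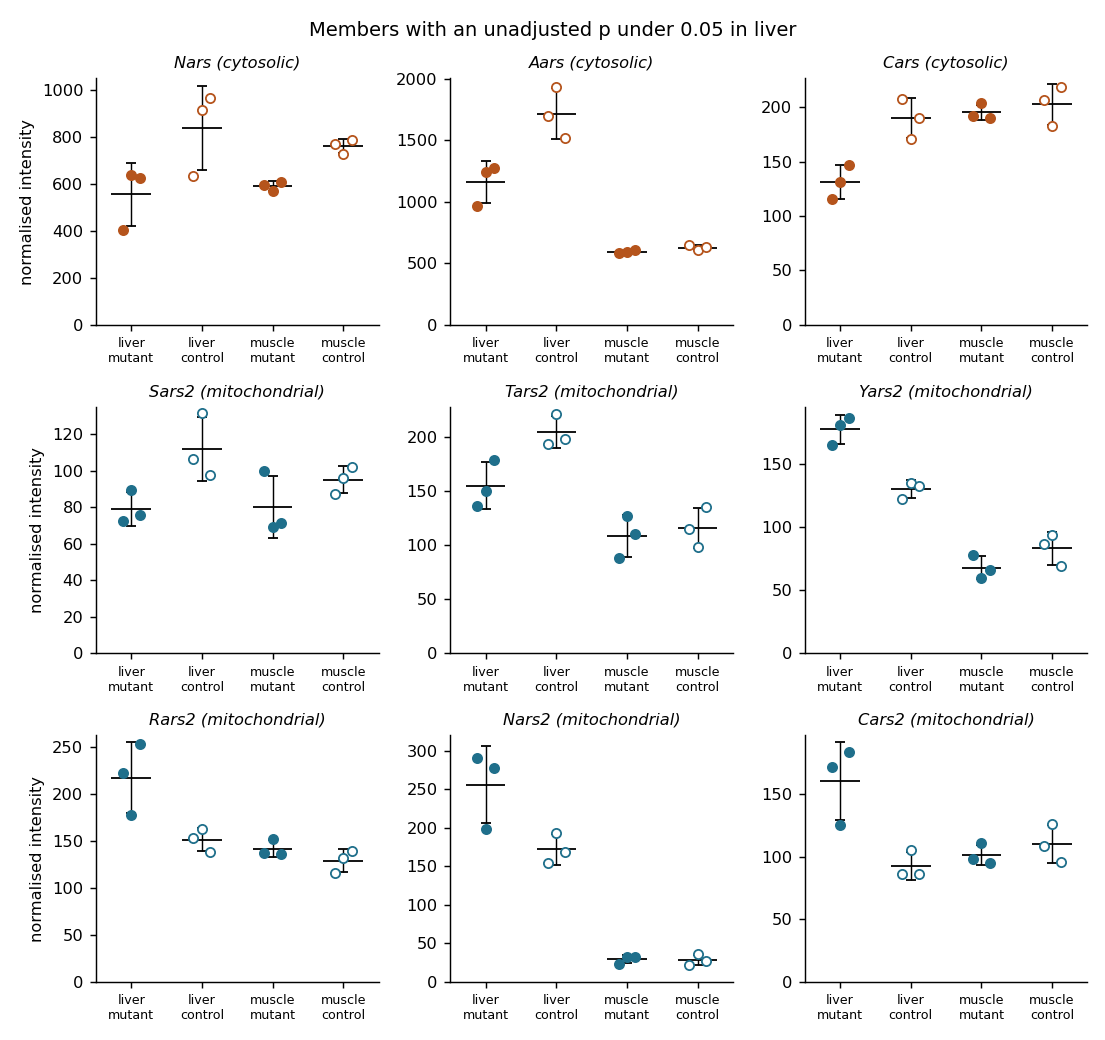
Normalised intensity of the 9 synthetase genes with an unadjusted p under 0.05 in liver, in each array of the 4 groups, with mean and SD (n = 3). Filled points are mutants and open points controls, and the 2 tissues were normalised separately, so liver and muscle heights are not on 1 scale. In liver, mutant and control points are separate except in Nars.

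Cysteine and asparagine were the pairs whose 2 genes stood furthest apart in mutant liver. Cars and Cars2 had differences of -0.48 and 0.69, and Nars and Nars2 of -0.59 and 0.52. The mitochondrial gene was above its partner in 9 of 14 pairs, with a median gap of 0.21. Neither side of these pairs passed the test.

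The other synthetases of liver had an unadjusted p above 0.05. Mars1, for methionine, had the highest cytosolic difference at 0.23 (adjusted p = 0.609), with 326, 318 and 406 in mutant livers, against 212, 316 and 378 in control livers, which overlap. Farsa read 45.7, 92.2 and 62.0 in mutant livers, against 108, 84.2 and 87.1 in control livers, and overlapped through mutant liver 2. Qars read 264, 283 and 240 in mutant livers, against 331, 292 and 359 in control livers, without overlap. Farsa, Qars and Kars had -0.43, -0.30 and -0.26 (adjusted p = 0.342, 0.321 and 0.440), and Farsb and Gars both -0.06. Mars2 was below the filter on dim genes, an intensity of 21.5 in liver, with 10.2, 17.3 and 10.7 in mutant livers, against 2.33, 0.95 and 3.43 in control livers. Of the 19 liver genes with several probe sets tested, 10 had probe sets that differed in sign, none of them past the test. Among these, the probe sets of Farsa ran from -0.43 to 0.61 and those of Qars from -0.30 to 0.44.

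**Figure D4:**
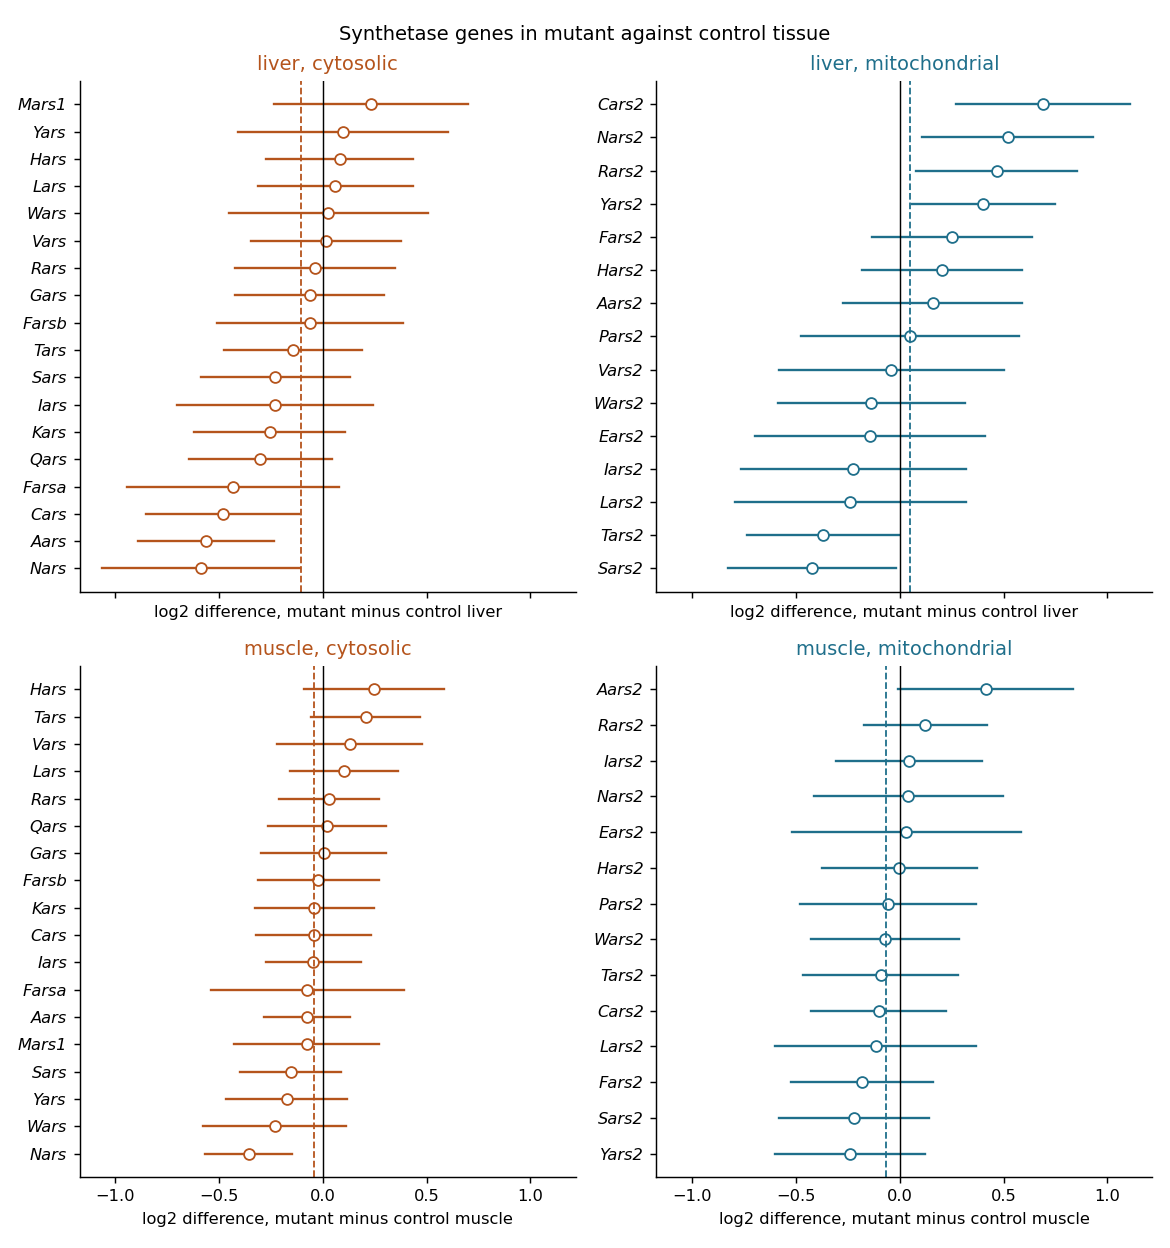
Log2 difference in intensity, mutant minus control, of cytosolic (left) and mitochondrial (right) synthetase genes in liver (top) and muscle (bottom), with 95% confidence intervals from limma and the class median dashed. All points are open because no member had an adjusted p under 0.05, and in liver the 4 highest are Cars2, Nars2, Rars2 and Yars2.

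By array, the class medians of liver, as log2 difference from the control mean, were -0.25, -0.21 and -0.07 for cytosolic genes in mutants 1 to 3, against -0.04, -0.09 and 0.12 in controls. For mitochondrial genes they were 0.25, -0.00 and 0.30 in mutants, against -0.06, 0.15 and -0.07 in controls. The mitochondrial median was thus high in mutant livers 1 and 3, the arrays with 3′ to 5′ ratios of 1.90 and 1.87, and at 0 in mutant liver 2, with 0.90. With the ratio as a covariate the class medians became -0.16 for cytosolic and -0.05 for mitochondrial genes, and without mutant livers 1 and 3 they became -0.21 and 0.00.

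**Figure D5:**
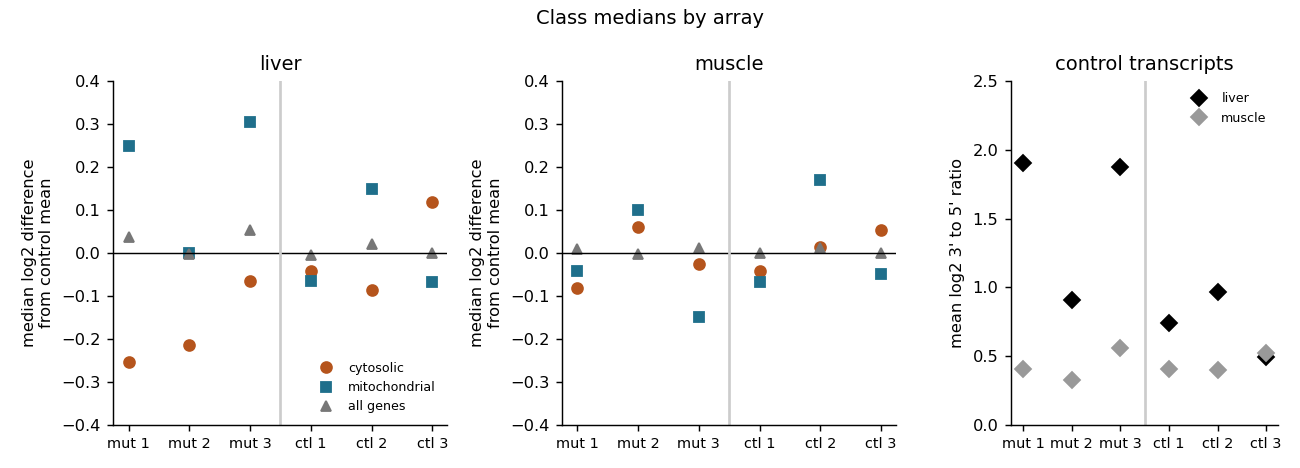
Median log2 difference from the control mean over cytosolic, mitochondrial and all genes in each liver (left) and muscle (centre) array, and the mean log2 3′ to 5′ ratio of control transcripts (right). The mitochondrial median is at 0.25 and 0.30 in mutant livers 1 and 3, the 2 arrays with ratios of 1.90 and 1.87.

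Muscle showed smaller differences. None of the 32 members tested passed, where 0.0152% of all 13131 genes did, which were 2 genes, and class medians were -0.04 for cytosolic and -0.06 for mitochondrial genes beside -0.00 for all genes. Without the intensity trend in the variance 0 genes passed in muscle. At an unadjusted p under 0.05 stood 1 member, Nars, beside 4.26% of all genes, and 4 members had no overlap, beside 9.53%. Vars2 was below the muscle filter of 13.0, with 10.7, 5.55 and 8.95 in mutant muscles, against 4.80, 24.6 and 14.2 in control muscles.

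Nars read 597, 571 and 608 in mutant muscles, against 772, 730 and 789 in control muscles. The groups were narrow and separate (log2 difference -0.36 ± 0.09 SE, unadjusted p = 0.00344, adjusted p = 0.994), but the other probe set of the gene gave -0.04. Nars lies on chromosome 18 with Ppargc1b, 22 protein-coding genes away, and Lars, Hars2 and Hars lie on the same chromosome, 107 to 196 genes away. Aars2 had the highest mean difference in muscle, with 64.2, 57.0 and 77.4 in mutants, against 51.1, 54.5 and 32.9 in controls (0.41, adjusted p = 0.994). Of the genes at the ends of the liver order, Nars, the lowest in liver, was also the lowest member in muscle. Aars, Cars and Cars2 lay near 0 in muscle. Aars read 587, 591 and 606 in mutant muscles, against 647, 607 and 631 in control muscles (-0.08, adjusted p = 0.995). Cars2 read 98.1, 111 and 95.3 in mutant muscles, against 109, 126 and 96.1 in control muscles (-0.10), and Cars was at -0.05. Nars2 read 23.5, 32.1 and 32.6 in mutant muscles, against 21.7, 35.7 and 27.5 in control muscles (0.04). Mutant and control arrays of muscle overlapped in Cars, Cars2 and Nars2 but not in Aars. Hars and Yars2 stood at 0.25 and -0.24, both with overlapping arrays, and Gars and Kars at 0.00 and -0.04.

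Whether liver and muscle responded differently was tested as an interaction, and none of the 32 members passed, where 1.42% of all 11842 genes did. Those 168 genes became 1 with the ratio as a covariate, 10 without mutant livers 1 and 3, 12 without mutant liver 1, 13 without mutant muscle 2, and 25 to 391 with any other single array left out. Cars2 had the highest value, 0.79 ± 0.24 SE more in liver (adjusted p = 0.121), and passed without mutant liver 2 (0.94, adjusted p = 0.0391). Yars2 followed at 0.64 (adjusted p = 0.164), and Aars and Cars had the lowest values, -0.49 and -0.44 (adjusted p = 0.191 and 0.302). Mars1 and Tars2 were at 0.31 and -0.28. Class medians were -0.14 and 0.02, beside 0.03 for all genes.

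Other parts of the translation machinery were read from gene lists. Over all genes 3.35% passed in mutant liver and 0.0152% in mutant muscle. Scaffolds of the multi-synthetase complex, with relatives and the amidotransferase that makes mitochondrial glutaminyl-tRNA, had 14 genes tested and 0 past the test in liver or muscle mutants. Eef1e1, a complex scaffold also called p18, and Aimp2, a scaffold also called p38, came closest in liver, at 0.64 (adjusted p = 0.0555) and 0.58 (adjusted p = 0.0943). Between organs 5 of 14 were higher and 7 lower in liver, beside 27.3% and 29.8% of all genes. Aimp2 stood at -4.55 (adjusted p = 9.28e-13) and Tarsl2, a second threonine enzyme of the cytosol, at -2.43 (adjusted p = 1.33e-10).

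Cytosolic initiation and elongation factors resembled the cytosolic synthetases between organs, with 3 of 23 higher and 14 lower in liver and a median of -0.66. Of all genes 27.3% were higher and 29.8% lower. Eef1a2, the muscle and neuron form of elongation factor 1 alpha, was at -6.91 (adjusted p = 4.96e-12), and Eef1a1, the general form, at 1.98 (adjusted p = 5.96e-10). In mutant liver 2 of 23 passed, beside 3.35% of all genes. Eef1b2, an exchange factor for elongation factor 1, rose by 0.69 (adjusted p = 0.0242), and Eef2, the translocation factor, fell by 0.59 (adjusted p = 0.0270). Neither passed with the ratio of 3′ to 5′ signal as a covariate (0.51 and -0.34, adjusted p = 0.527 and 0.638) or without mutant livers 1 and 3 (0.50 and -0.36, adjusted p = 0.443 and 0.519). Eef2 also passed the interaction at -0.73 (adjusted p = 0.0270), but not without mutant liver 1 (-0.68, adjusted p = 0.0881) or with the covariate (-0.49, adjusted p = 0.361).

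Mitochondrial tRNA processing and translation factors had 0 of 23 past the test in mutant liver or muscle, with medians of 0.05 and -0.10. Tfb1m, a methyltransferase of mitochondrial ribosomal RNA, and Tfam, the packaging and transcription factor of mitochondrial DNA, came closest in liver at 0.85 (adjusted p = 0.0857) and 0.58 (adjusted p = 0.0975). In muscle Tufm, the mitochondrial elongation factor Tu, was at -0.43 (adjusted p = 0.994). Between organs 5 of 23 were higher and 3 lower in liver, beside 27.3% and 29.8% of all genes.

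Targets of ATF4 and the amino acid response, a programme that in mammalian cells also induces several cytosolic synthetases, had 2 of 25 lower in mutant liver and 0 higher. Of all genes 3.35% passed there in either direction. Slc38a2, an amino acid transporter, fell by 0.83 (adjusted p = 0.0381), and Shmt2, the mitochondrial serine hydroxymethyltransferase, fell by 0.56 (adjusted p = 0.0348). With the covariate these were -0.37 and -0.42 (adjusted p = 0.720 and 0.626), and without mutant livers 1 and 3 both were -0.44 (adjusted p = 0.585 and 0.513). The list's median was -0.07. None of 25 passed in muscle. Interferon-inducible genes, listed because Wars is one, had 0 of 22 past the test in mutant liver and 1 of 22 in mutant muscle. The shares over all genes were 3.35% in liver and 0.0152%, or 2 genes, in muscle. The muscle gene was Iigp1, an interferon-inducible GTPase that rose by 2.60 (adjusted p = 0.00699). What made it rise was not tested. Iigp1 did not pass without control muscle 1 (2.46, adjusted p = 0.0659) or control muscle 2 (adjusted p = 0.0814). Wars itself was at 0.03 in liver and -0.23 in muscle. Between organs 13 of 22 genes of this list were higher and 2 lower in control liver, with a median of 0.70. The shares over all genes were 27.3% and 29.8%. Wars, lower in liver, went against that majority.

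Of 10 markers of Kupffer cells and macrophages 2 passed in mutant liver, beside 3.35% of all genes. Tyrobp and Lyz2 rose by 1.34 (adjusted p = 0.0169) and 1.28 (adjusted p = 0.0181). With the covariate these were 1.11 and 0.87 (adjusted p = 0.324 and 0.440), and without mutant livers 1 and 3 they were 1.16 and 1.00 (adjusted p = 0.336 and 0.389). The summed level of the 10 ranged from 3647 to 4571 in mutants, against 2302 to 3231 in controls. No marker of the list was at 0 in all arrays of a group. Of 10 hepatocyte markers 1 passed: Tat, the tyrosine aminotransferase, fell by 0.75 (adjusted p = 0.0431), and did not pass with the covariate (-0.39, adjusted p = 0.732). Means were lower in mutant liver for 9 of these 10 markers and higher for 1. Their summed level ranged from 106173 to 114444 in mutants, against 117978 to 121379 in controls. The part of these cells in the synthetase values was not tested.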

How the data were processed

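Expression was measured in liver and quadriceps muscle, 3 arrays in each of 4 groups. The deposited values are linear intensities per probe set, 1 column per array with algorithm and scaling not given in the sources used here. The design text in the labels names d-Chip, for the clustering. Median intensity per array was 27.2 to 40.1 for liver and 20.1 to 22.3 for muscle, and precision is limited by the number of arrays.

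Symbols came from the platform annotation, updated through Entrez identifiers for 34741 of 45037 probe sets; 34945 had 1 symbol, 932 several and 9160 none, and 64 control probe sets were left out. The probe set with the highest mean log2 value stood for its gene. The deposited intensities were taken as log2(value + 16) and quantile normalised within tissue, or over all 12 arrays for liver against muscle. Genes with a mean above the 40th percentile over probe sets were tested with limma 3.58.1 in R 4.3.3 (moderated variance with an intensity trend, Benjamini-Hochberg over all genes tested, threshold 0.05). Alternatives covered offset, filter, normalization, probe set choice, variance model, the fit of all arrays, RNA quality, the replicate number and each array left out. Fits were tested on simulated data, with changes put into genes above the median intensity. Of 1.5-fold changes 6.45% were recovered in liver, 12.7% in muscle and 4.62% in the difference between tissues. Of 2-fold changes these shares were 71.2%, 66.1% and 56.9%, so changes of 1.5-fold were mostly missed. Figures used matplotlib 3.10.9 in Python 3.11.15.

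Members, gene lists and the rule for naming genes were chosen with earlier results of these data known, so no class or list was tested as a set. That rule named members past the test for the mutation or its difference between tissues, the extremes of each class in each comparison, Gars, Kars, Farsa, Farsb, members whose probe sets disagreed, and the 2 smallest p-values of each list in liver and in muscle. The members shown beyond it, among them those with an unadjusted p under 0.05 in liver, were chosen after their values were seen. Replicate numbers were not taken to pair the samples (the check is in the closing section). Lists of lymphocyte, adipocyte, erythroid and endothelial markers had 0 calls in mutant liver and in mutant muscle.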

Additional observations from a re-analysis of the deposited data

How the results depend on the processing

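For the mutation, 0 synthetases of either class passed under the alternatives, except that the fit of all 12 arrays gave 2 cytosolic genes (lower) and 1 mitochondrial gene (higher) in liver, and leaving out mutant liver 2 gave 1 mitochondrial gene each in liver and in the difference between tissues. When the intensity trend in the variance was left out, 0 genes of any kind passed in liver, in muscle or in the difference between tissues. Each call for the mutation named above, list genes included, therefore rests on that trend. Without mutant livers 1 and 3 the cytosolic median in liver was -0.209. With single arrays left out it ran from -0.199 to -0.0618 and the mitochondrial median from -0.00342 to 0.250; calls ran from 0 to 1 among mitochondrial genes. Medians ran from -0.0734 to 0.0317 for cytosolic genes in muscle and from -0.249 to -0.0854 for the difference between tissues, where calls among mitochondrial genes ran from 0 to 1.

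Between organs, values as deposited gave 9 cytosolic calls and medians of -0.0586 and 0.598 for cytosolic and mitochondrial genes, by construction without removing the overall shift. Median centring gave a cytosolic median of -0.490 and the mutant arrays -0.885. Leaving out single arrays gave cytosolic medians of -0.815 to -0.636 and mitochondrial medians of 0.0688 to 0.214. As deposited the sign turned for Farsa (0.196), Nars (0.0950), Qars (0.0246) and Sars (0.0653), and in mutant arrays for Cars2 (0.0645).

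Other changes of sign concerned Farsa, Farsb, Gars and Kars, none past the test, and the cause was not tested. In liver they were Farsa with the mean of probe sets (0.0114) and the covariate (0.0411), and, with single arrays left out, Farsb (-0.270 to 0.113) and Gars (-0.148 to 0.0494). In muscle they were Farsb as deposited (0.00155) and centred (0.0144), Farsa with the mean of probe sets (0.0124), and, with single arrays left out, Farsa (-0.297 to 0.0430), Farsb (-0.107 to 0.0801), Gars (-0.107 to 0.147) and Kars (-0.114 to 0.0764). For the difference between tissues they were Farsa with the covariate (0.00141) and without mutant livers 1 and 3 (0.0687), and Farsb (-0.248 to 0.135) and Gars (-0.210 to 0.0463) with single arrays left out.

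Same-numbered arrays of 2 groups correlated in their deviations between -0.0674 and 0.135, and arrays with different numbers between -0.115 and 0.0719. Mutant and control muscles of the same number stood at 0.0224, 0.0576 and 0.135. The numbers were not taken as pairs, and pairing is not excluded by these values. With the replicate block 11 genes passed in liver in place of 447 and 102 in place of 168 for the difference between tissues, with 0 synthetases in each; between organs 14 cytosolic and 6 mitochondrial genes passed, as without it. With 3 arrays a group, no member that missed the threshold is shown to be unchanged.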
